A study of Mus musculus with 6 samples.

Results

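Autophagy and LC3-associated phagocytosis (LAP) were followed through the transcripts of 38 genes, picked by symbol from the 55291 genes of the deposited table. They encode the machinery that builds an autophagosome, the double membrane that carries cytosolic cargo to the lysosome, together with the cargo receptors. The cells were BMDM, macrophages that are derived in culture from mouse bone marrow. Of 6 poly(A) RNA libraries, 3 came from BMDM pretreated with apoptotic cells (AC) and 3 from BMDM without that treatment. Strain, genotype, age and sex of the mice, and where the apoptotic cells came from, how many were added and when, are not stated in the labels used here.

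As background, canonical autophagy starts with the ULK1 kinase complex, which activates a class III phosphatidylinositol 3-kinase complex on a growing membrane. Ubiquitin-like conjugation then links proteins of the ATG8 family (LC3 and GABARAP) to lipid on that membrane. LAP uses part of the same machinery on the single membrane of a phagosome that holds engulfed material such as an apoptotic cell. It needs Rubicon, Beclin 1, UVRAG, the lipid kinase and the conjugation enzymes, together with the phagocyte NADPH oxidase, but not the ULK1 complex.

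Levels are in TPM, reads per base as a share of 1000000 for each library, after rescaling. Differences are of mean log2(TPM + 1) values, with the untreated mean taken from the AC mean, and stand with their SE. On this scale the change of a gene with few transcripts looks smaller than it is. In bulk RNA, fewer cells of a type and less RNA per cell cannot be told apart. Only RNA was measured, so the values do not show whether the activity of autophagy or LAP changed. Whether replicates were separate cultures or animals is not stated in the labels, and p-values thus reflect the spread of these libraries, which may be technical.

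The libraries held 19062891 to 32253259 recovered reads, and all 10 macrophage markers examined were at or above 1 TPM in every library. Markers of other cells were low. The summed level of 7 T cell markers was 10.5 to 17.3 TPM in AC pretreated and 9.66 to 15.6 TPM in untreated libraries, mostly from Cd4, with Cd3d at 0 throughout. Sums were 25 to 41.7 and 23.4 to 54.4 TPM for 7 neutrophil markers, and 2.51 to 3.67 and 2.68 to 4.21 TPM for 5 B cell markers. They were 3.67 to 5.33 and 3.12 to 6.44 TPM for 5 dendritic cell markers, and 0 to 1.03 and 0.104 to 0.223 TPM for 5 stromal markers. The 4 epithelial markers summed to 2.04 to 4.7 TPM in AC pretreated and 0.65 to 1.56 TPM in untreated libraries, with Epcam at 0, and the 5 erythroid markers to 0.357 to 17.5 and 0.0652 to 3.47 TPM. Some libraries stood apart. Transcripts of 10 placental genes, chosen after their values were seen, summed to 37.1 and 176 TPM in AC replicates 1 and 2 and to 22.5 and 43 TPM in untreated replicates 1 and 2, and were 0 in replicate 3 of both groups. The lysozyme gene Lyz2 was at 83.7 TPM in untreated replicate 1 and at 9270 TPM or more elsewhere. The small RNA gene Gm23935 took 73936 TPM in AC replicate 3, against 9648 to 13452 TPM in the others. The part of the placental transcripts and of Lyz2 in the values below was not tested. Results with TPM recomputed without Gm23935, and with each library left out, are given further on. Median differences within replicates 1 and 2 and between the replicate 3 libraries stand with the account of the spread.

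All 38 genes were expressed in every library, with at least 1 TPM each, and all 38 passed the filter on low values. Per base of all merged exons, Gabarap was the most abundant, with a mean of 799 TPM over the 6 libraries. Sqstm1 followed at 515, Vmp1 at 174 and Gabarapl1 at 140 TPM. These 4 were above 100 TPM in each library. At the other end Atg16l2, Atg2b, Wipi1 and Atg4d stayed under 10 TPM throughout. The order depends on the length used. Per base of the principal transcript, computed for the ATG8 family and some cargo receptors, Map1lc3b at 208 and Tax1bp1 at 175 came above Gabarapl1 at 155. Between 161 reads (Wipi1) and 19766 reads (Sqstm1) were recovered per gene and library, so the rarest members carry more counting error than the common ones. The 38 genes together made up 0.269, 0.276 and 0.242% of TPM in AC replicates 1, 2 and 3 and 0.265, 0.274 and 0.271% in untreated replicates 1, 2 and 3. Without Gabarap the sum was 1730, 1866 and 1834 TPM with AC and 1913, 1894 and 1950 TPM without. Each AC library was then below each untreated one at this scaling, whereas with Gabarap the groups overlapped. The sum was not recomputed at other scalings, so its separation is given for this one alone. Median-of-ratios scaling, used as an alternative below, divides AC replicate 1 by 0.8667 and the other libraries by 0.9981 to 1.0816. Over all genes tested the median log2 deviation of AC replicate 1 from the 6-library mean was -0.18. Of all genes tested 70.6% had a lower AC mean on the log2 scale.

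**Figure D1:**
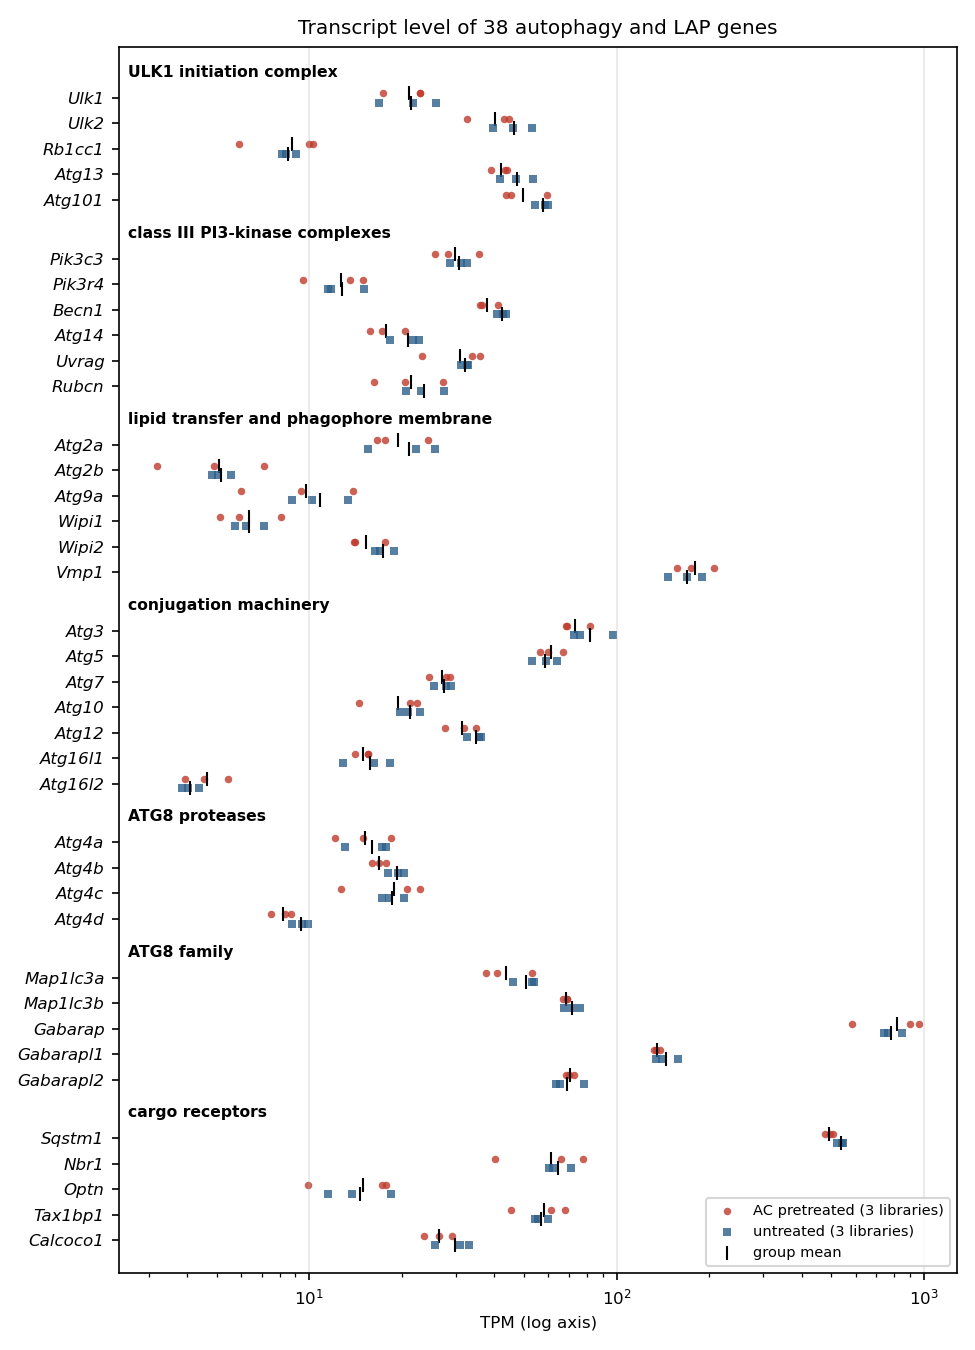
TPM of the 38 genes on a log axis, grouped by role, with circles for the 3 AC pretreated libraries, squares for the 3 untreated libraries and a bar for each group mean. The spread between genes, from Atg16l2 at 4.36 to Gabarap at 799 TPM on average, was far wider than the distance between the groups of any gene.

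No gene of autophagy or LAP passed the test between AC pretreated and untreated macrophages. With limma and Benjamini-Hochberg adjustment over 12603 genes, 0 of the 38 passed in either direction, as did 0% of all genes tested, and the adjusted p was 1.0 for each of the 38. At an unadjusted p under 0.05 there were also 0 of the 38, against 1.3% of all genes tested. With voom on recovered reads 0 of the 38 and 0 genes overall passed, with 97 genes at an unadjusted p under 0.05. The mean on the log2 scale was lower in AC pretreated cells for 30 of the 38 (78.9%) and higher for 8, shares near the 70.6 and 29.4% of all genes tested. The median difference of the 38 was -0.09, beside -0.07 over all genes tested. Single differences lay between -0.23 (Map1lc3a) and 0.14 (Atg16l2), with a median SE of 0.17. For 26 of the 38 (68.4%) the 95% interval of the difference lay inside 1.5-fold, against 46.1% of all genes tested. Among genes with a group mean of at least 5 TPM these shares were 70.3 and 58%. All 38 intervals lay inside 2-fold, against 87.4% of all genes tested.

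**Figure D2:**
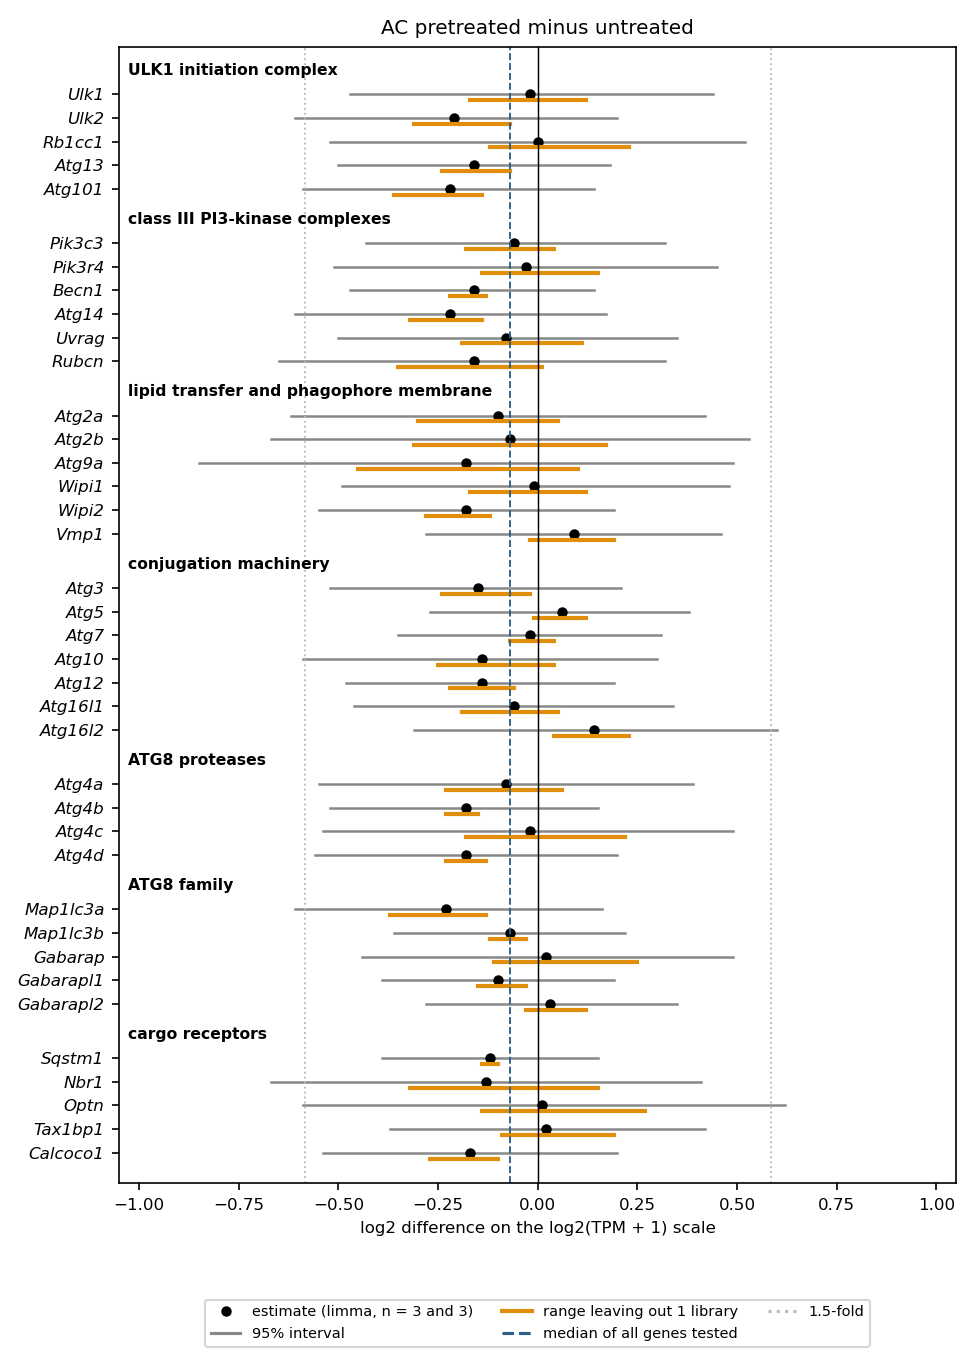
Log2 difference of each gene, AC pretreated minus untreated, with its 95% interval in grey and the range of estimates on leaving out 1 library in orange. Every grey interval crosses 0, the dashed line marks the median of all genes tested at -0.07, and the dotted lines mark 1.5-fold.

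Among the genes of the ULK1 initiation complex, 0 of 5 passed. Atg101, which encodes a subunit that stabilises ATG13, had the smallest unadjusted p of the 38. It stood at 59.4, 45.3 and 43.7 TPM in AC replicates 1, 2 and 3 and at 58.3, 59.9 and 54.1 TPM in untreated replicates 1, 2 and 3. AC replicate 1 lay inside the untreated range and the other AC libraries below it, for a difference of -0.22 ± 0.16 (SE). The kinase gene Ulk2 averaged 40.1 ± 6.59 TPM in AC pretreated and 46.3 ± 6.73 TPM in untreated libraries (SD, n = 3 each). Its paralog Ulk1 was at 21.1 ± 3.2 and 21.5 ± 4.47 TPM. The scaffold subunits were close between groups too, with Atg13 at 42.2 ± 2.64 TPM in AC pretreated and 47.4 ± 5.79 TPM in untreated cells. Rb1cc1, which encodes FIP200, was at 8.75 ± 2.45 and 8.52 ± 0.473 TPM.

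The class III kinase complexes hold the subunits on which LAP depends, and 0 of their 6 genes passed. Rubcn encodes Rubicon, which restrains canonical autophagy and is needed for LAP. It had 16.2, 20.5 and 27.3 TPM in AC replicates 1, 2 and 3, against 27.5, 23.1 and 20.6 TPM in untreated replicates 1, 2 and 3. The groups spanned nearly the same range, and the difference was -0.16 ± 0.21 (95% interval -0.65 to 0.32). Its direction rested on AC replicate 1, without which the difference was 0.01. Within replicates 1 and 2 it was -0.44, and between the replicate 3 libraries 0.39.

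Becn1, which encodes the scaffold Beclin 1, had 35.9, 36.5 and 41 TPM in AC pretreated libraries and 42.7, 40.9 and 43.6 TPM in untreated ones. AC replicate 3 reached just above the lowest untreated library, so the groups overlapped. The difference was -0.16 ± 0.13. Uvrag encodes a subunit that marks the endosomal and phagosomal form of the complex. It had 23.2, 33.8 and 35.9 TPM with AC and 32.9, 31.1 and 32.6 TPM without, so that AC replicate 1 alone lay well below the rest. The catalytic subunit gene Pik3c3 (VPS34) had 25.7, 35.6 and 28.3 TPM in AC pretreated and 32.7, 28.6 and 31.2 TPM in untreated libraries. Pik3r4, which encodes its regulatory kinase VPS15, had 9.55, 13.6 and 14.9 against 15.1, 11.8 and 11.5 TPM. Both pairs of groups overlapped. Atg14 encodes the subunit of the autophagy-specific form, which Rubicon is not part of. It had 15.8, 17.2 and 20.5 TPM in AC pretreated libraries and 22.8, 21.7 and 18.3 TPM in untreated libraries, a difference of -0.22 ± 0.17. Reads of Becn1 and Uvrag are less certain than those of the others, since 43.9 and 17.6% of their exon bases overlap genes on the opposite strand. No source used here states the strand setting of the counting, and those partner genes stayed at or under 0.39 TPM in every library.

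Genes for lipid transfer and the early membrane also had 0 of 6 past the test. Vmp1, which encodes a scramblase of the endoplasmic reticulum, was the most abundant at 175, 208 and 157 TPM in AC pretreated and 147, 170 and 190 TPM in untreated libraries. The groups overlapped, at a difference of 0.09 ± 0.16. Atg2a and Atg2b, for the lipid transfer proteins, averaged 19.5 ± 4.15 and 5.07 ± 1.97 TPM with AC, and 21.1 ± 5.22 and 5.15 ± 0.383 TPM without. Atg9a, for a scramblase carried by the vesicles that seed the membrane, had the widest interval of the 38 (-0.85 to 0.49), at 9.79 ± 3.99 TPM in AC pretreated and 10.8 ± 2.39 TPM in untreated cells. Its difference was -0.58 within replicates 1 and 2 and 0.61 between the replicate 3 libraries, and that of Atg2a -0.46 and 0.62. Of its exon bases 32.6% overlap other genes, mostly Gm29253, which was listed at 0. The lipid-binding effector genes Wipi1 and Wipi2 were at 6.37 ± 1.53 and 15.3 ± 2.07 TPM with AC, and at 6.34 ± 0.7 and 17.4 ± 1.29 TPM without.

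In the conjugation machinery, which LAP and canonical autophagy share, 0 of 7 genes passed. Atg5, part of the ATG12-ATG5-ATG16L1 complex that places LC3 on membranes, had 56.3, 66.7 and 59.9 TPM in AC pretreated libraries. In untreated libraries it had 52.9, 58.9 and 63.8 TPM, and the difference was 0.06 ± 0.14. Atg7, the E1-like enzyme gene, stood at 24.5, 28.7 and 27.8 TPM with AC and 28.9, 25.5 and 27.9 TPM without, a difference of -0.02 ± 0.14. Atg16l1, whose product positions the complex on autophagosome or phagosome membrane, was at 14.1, 15.5 and 15.5 TPM in AC pretreated cells and 18.3, 16.2 and 12.9 TPM in untreated cells. In all 3 genes the groups overlapped. The 95% intervals were -0.27 to 0.38 for Atg5, -0.35 to 0.31 for Atg7 and -0.46 to 0.34 for Atg16l1, all inside 1.5-fold. The E2-like enzyme genes Atg3 and Atg10 averaged 73.3 ± 7.58 and 19.4 ± 4.3 TPM with AC, and 82 ± 13.5 and 21.2 ± 1.66 TPM without. Atg12, for the ubiquitin-like partner of ATG5, averaged 31.5 ± 3.58 and 34.8 ± 1.95 TPM. Atg16l2, a paralog of Atg16l1, had the largest positive difference of the 38 at 0.14 ± 0.20, and its level was 4.54, 3.93 and 5.45 TPM with AC and 4.04, 4.36 and 3.86 TPM without.

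Start regions of the genes were read from RefSeq (GRCm38.p6), 250 bases before to 50 after each start, for 32 of the 38 genes with 39 starts. The 6 without an entry were Rb1cc1, Becn1, Pik3c3, Atg12, Atg16l1 and Map1lc3a. Median GC content was 60.3%, against 52.7% over all 32851 starts, and the median observed to expected ratio of CpG was 0.77 against 0.38. The E-box CACGTG, a palindrome and hence the same on both strands, is the core of the motif bound by MiT/TFE factors, which are known activators of lysosome and autophagy genes. It was present in 5 of the 39 windows (12.8%) and in 7.15% of all windows. The 5 belong to Atg3, Atg5, Atg7, Atg14 and Rubcn. The other Rubcn window, at the 5′ end of the gene (chr16:32877680-32877979), held 0. For Atg7 only a start inside the gene was listed, so its 5′ end was not read. The FoxO motif TGTTTAC, on either strand, was in 0 of the 39 and in 3.65% of all. Shares of both motifs were not matched for GC or CpG content, in which the 39 windows differ from all windows. The windows below are those of the conjugation genes and of Rubcn that hold the E-box, in capitals. They run 5′ to 3′ along the gene, from chr10:44268089-44268388 (plus strand) for Atg5, chr16:45158579-45158878 (plus strand) for Atg3, chr6:114670846-114671145 (plus strand, a start inside the gene) for Atg7 and chr16:32868317-32868616 (minus strand, a start inside the gene) for Rubcn.
Atg5: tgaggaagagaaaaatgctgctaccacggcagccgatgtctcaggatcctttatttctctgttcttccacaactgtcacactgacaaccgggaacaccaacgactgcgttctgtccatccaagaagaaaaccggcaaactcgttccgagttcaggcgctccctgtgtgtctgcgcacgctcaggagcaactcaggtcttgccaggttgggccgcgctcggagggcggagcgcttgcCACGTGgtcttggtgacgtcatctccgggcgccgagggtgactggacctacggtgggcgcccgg
Atg3: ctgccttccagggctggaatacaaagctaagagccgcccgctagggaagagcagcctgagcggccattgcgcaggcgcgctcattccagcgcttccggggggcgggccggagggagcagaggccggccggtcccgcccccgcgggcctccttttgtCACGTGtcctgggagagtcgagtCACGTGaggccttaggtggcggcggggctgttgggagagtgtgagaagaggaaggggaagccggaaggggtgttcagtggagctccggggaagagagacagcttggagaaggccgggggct
Atg7: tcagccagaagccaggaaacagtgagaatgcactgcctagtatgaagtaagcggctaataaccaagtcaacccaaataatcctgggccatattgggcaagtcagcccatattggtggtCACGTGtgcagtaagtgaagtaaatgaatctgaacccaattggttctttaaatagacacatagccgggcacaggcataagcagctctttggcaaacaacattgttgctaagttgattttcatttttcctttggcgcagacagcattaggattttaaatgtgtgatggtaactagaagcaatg
Rubcn: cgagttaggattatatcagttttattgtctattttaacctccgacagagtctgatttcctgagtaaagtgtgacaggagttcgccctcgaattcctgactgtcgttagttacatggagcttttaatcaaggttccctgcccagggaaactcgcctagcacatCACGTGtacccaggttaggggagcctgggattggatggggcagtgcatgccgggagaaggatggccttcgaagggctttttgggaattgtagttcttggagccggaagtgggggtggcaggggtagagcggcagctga
The E-box begins 14 bases before the start in Atg5, 94 and 71 bases before it in Atg3, 132 bases before it in Atg7 and 88 bases before it in Rubcn. A match is a description of the letters and not a measured binding site.

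The proteases that trim ATG8 proteins before conjugation and free them from lipid had 0 of 4 genes past the test. Atg4b, the main protease gene for LC3, had 16, 16.8 and 17.8 TPM in AC pretreated libraries, against 20.3, 19.5 and 18.1 TPM in untreated libraries, a difference of -0.18 ± 0.15. Atg4d had 8.32, 7.5 and 8.71 TPM with AC and 9.5, 9.93 and 8.75 TPM without, a difference of -0.18 ± 0.16. In both genes each AC library lay below each untreated one, by a narrow margin. Atg4a and Atg4c averaged 15.2 ± 3.2 and 18.8 ± 5.37 TPM with AC, and 16 ± 2.52 and 18.6 ± 1.59 TPM without. Of Atg4d exon bases 19.3% overlap Kri1, which lies on the opposite strand. Kri1 was at 7.67, 8.3 and 18 TPM in AC replicates 1, 2 and 3 and 14, 11.4 and 14 TPM in untreated ones. With the strand setting of the counting not stated, the reads of Atg4d are less certain.

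Atg4b, Atg4d and the receptor gene Sqstm1 were the 3 of 38 genes (7.89%) whose groups did not overlap, against 4.42% of all genes tested. In each the AC libraries were lower, a pattern that 3.48% of all genes tested had, and 0 of the 38 had the opposite pattern, against 0.936% of all genes. The pattern depended on how libraries were scaled. With median-of-ratios scaling, and also with TPM recomputed without Gm23935, the groups of 0 of the 38 were separate in that direction, and of all genes 1.94 and 2.05%. For Sqstm1 the median-of-ratios values were 586, 458 and 471 in AC replicates 1, 2 and 3 and 483, 535 and 543 in untreated replicates 1, 2 and 3, so that AC replicate 1 moved above every untreated library. Of Sqstm1 exon bases 17.3% overlap Mrnip, on the opposite strand, which was at 0.614 to 1.57 TPM.

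In the ATG8 family, whose lipid-linked forms coat the autophagosome or the LAP phagosome, 0 of 5 genes passed. Gabarap had 964, 899 and 582 TPM in AC replicates 1, 2 and 3 and 741, 848 and 763 TPM in untreated replicates 1, 2 and 3. The AC libraries spanned more than the untreated range on both sides, and the difference was 0.02 ± 0.20. Gabarapl1 had 138, 134 and 132 TPM with AC and 141, 134 and 159 TPM without, and 28.3% of its exon bases overlap 1700101I11Rik, on the opposite strand, at up to 0.314 TPM. Map1lc3b, for the LC3 form most used as a marker of autophagosomes, stood at 68.8, 68.9 and 66.9 TPM in AC pretreated and 76.2, 71.8 and 67.3 TPM in untreated libraries. Its difference was -0.07 ± 0.13, with a 95% interval of -0.36 to 0.22. Gabarapl2 stood at 70.2, 72.6 and 68.4 TPM with AC and 63.5, 65.4 and 78.5 TPM without, and the groups overlapped. Map1lc3a had 52.9, 37.7 and 40.7 TPM in AC pretreated libraries and 53, 53.8 and 46 TPM in untreated ones. Its difference of -0.23 ± 0.17 was the most negative of the 38, while AC replicate 1 lay within the untreated range.

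Gabarap made up most of the family's summed TPM, with 74.5, 74.2 and 65.4% in AC replicates 1, 2 and 3 and 68.9, 72.3 and 68.5% in untreated replicates 1, 2 and 3. Gabarapl1 followed at 12.2 ± 2.3% in AC pretreated and 12.9 ± 1.42% in untreated libraries (SD, n = 3 each). Map1lc3b and Gabarapl2 came next with mean levels of 70 and 69.8 TPM over the 6 libraries, and their ranges overlapped. Map1lc3a was lowest, its range of 37.7 to 53.8 TPM below those of the other 4. These levels are per base of all merged exons, and those of Map1lc3b span 7517 bases although its longest principal transcript has 2532. Per base of the principal transcript, Map1lc3b came to 208 and Gabarapl1 to 155 on the TPM scale of the same libraries, which turns their order, while Gabarap at 1091 remained first.

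**Figure D3:**
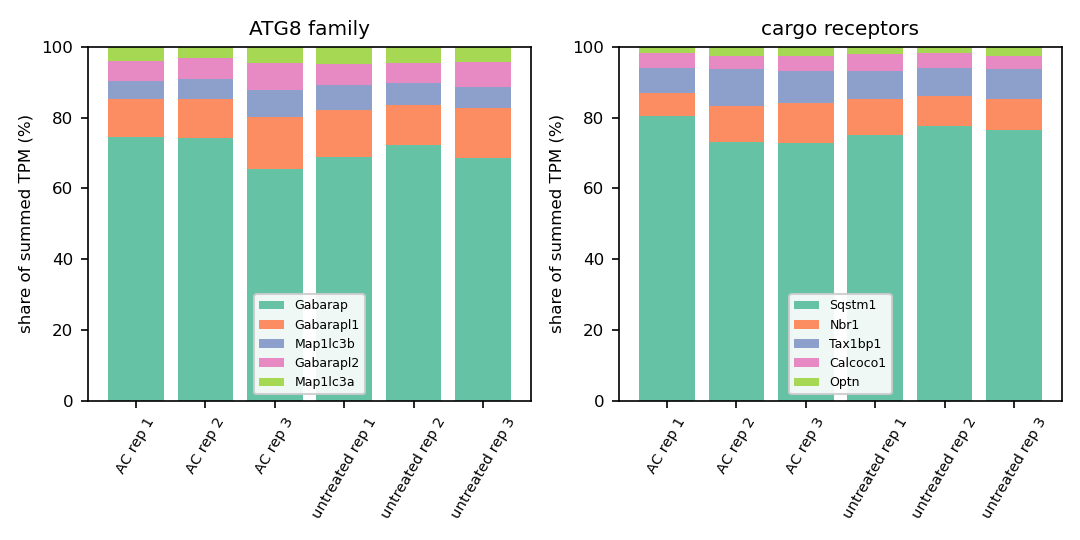
Share of each gene in the summed TPM of its family, in percent, for the 3 AC pretreated libraries on the left and the 3 untreated libraries on the right of each panel. Gabarap took 65.4 to 74.5% of the ATG8 family and Sqstm1 72.8 to 80.6% of the cargo receptors.

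Cargo receptors bind ubiquitinated or other cargo and ATG8 proteins at once, and 0 of their 5 genes passed. Sqstm1 encodes p62, which is itself degraded with its cargo. It had 508, 477 and 496 TPM in AC pretreated libraries and 523, 544 and 542 TPM in untreated libraries. Each AC library was lower at this scaling, with a difference of -0.12 ± 0.12 and an interval of -0.39 to 0.15. Nbr1 had 40.1, 65.7 and 77.5 TPM with AC and 71.1, 60.4 and 62.3 TPM without, and the AC values lay on both sides of the untreated ones. Tax1bp1 had 45.5, 67.8 and 61.4 TPM in AC pretreated and 55.4, 54.3 and 60 TPM in untreated libraries. For Optn (optineurin) the levels were 9.87, 17.2 and 17.7 TPM with AC and 13.8, 11.5 and 18.5 TPM without. Calcoco1, for a receptor in turnover of the endoplasmic reticulum and Golgi, had 26.4, 23.7 and 29.1 TPM against 33, 30.9 and 25.7 TPM. In all of these but Sqstm1 the groups overlapped. Sqstm1 held 75.5 ± 4.43% of the receptors' summed TPM in AC pretreated and 76.4 ± 1.25% in untreated cells. Per base of all merged exons the ranges of Nbr1 and Tax1bp1 overlapped, Calcoco1 lay below both and Optn was lowest. Per base of the principal transcript Tax1bp1 came to 175, Calcoco1 to 57.1 and Optn to 21.2, beside means of 57.4, 28.1 and 14.8 TPM over merged exons. Nbr1 and Sqstm1 were not computed that way, so their order against Tax1bp1 and the receptor shares hold for merged exons alone.

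The AC libraries differed more among themselves than the untreated ones. The median SD of log2(TPM + 1) over the 38 genes was 0.23 in AC pretreated and 0.12 in untreated libraries, beside 0.29 and 0.16 over all genes tested. For 27 of the 38 the AC spread was the wider one, as it was for 73.3% of all genes. AC replicate 1 held the lowest value of 20 of the 38 genes, a count that was not made for all genes tested. The median deviation of the 38 from their own means was -0.17 in AC replicate 1, 0.04 in replicate 2 and 0.02 in replicate 3, and 0.11, 0.03 and 0.01 in untreated replicates 1, 2 and 3. Over all genes tested the same medians were -0.18, 0.04 and 0.05 with AC and 0.10, 0.02 and -0.00 without, so the 38 followed the whole library. Within replicates 1 and 2 the median difference of the 38 was -0.18 and that of all genes -0.13. Between the replicate 3 libraries these were 0.01 and 0.05. There 21 of the 38 differences (55.3%) had the opposite sign to that of all 6 libraries, as had 44.3% of all genes tested.

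**Figure D4:**
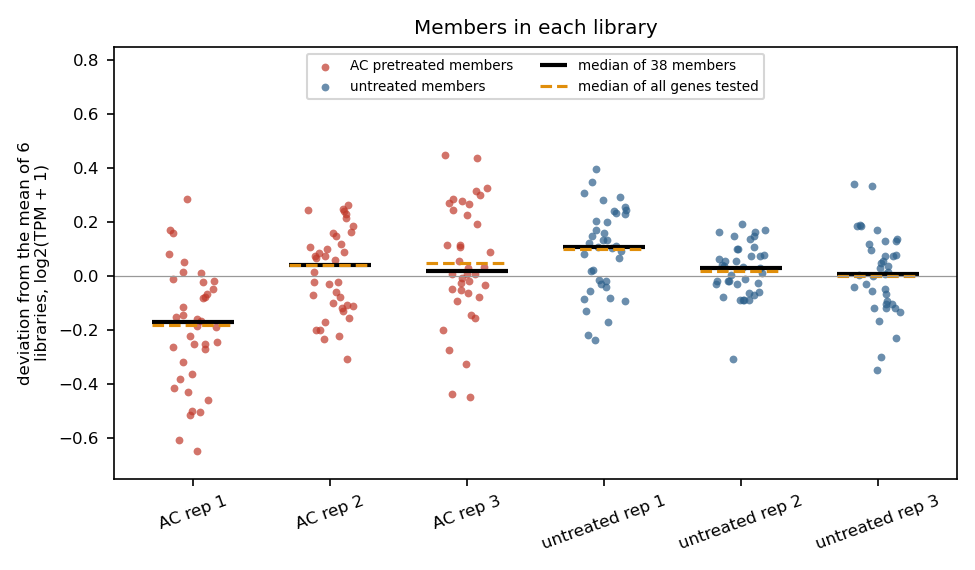
Deviation of each of the 38 genes from its mean over 6 libraries on the log2(TPM + 1) scale, 1 dot per gene, with AC pretreated libraries on the left and untreated libraries on the right. AC replicate 1 has the lowest median, -0.17, and the black and dashed orange medians of the 38 and of all genes tested nearly coincide in every library.

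Part of the spread within the AC group went with merged exon length. Of the 19 genes with at least the median length of 5869 bases, 18 were higher in AC replicate 3 than in AC replicate 1, and 1 was lower, Map1lc3b. The shorter genes went both ways, with 10 of 19 higher and 9 lower. The median log2 difference, replicate 3 minus replicate 1, was 0.38 over the longer genes and 0.01 over the shorter ones. Among the longer genes Atg2b had the highest ratio, 2.23 times its level in replicate 1, followed by Nbr1 at 1.93 times. Gabarap at 0.60 times and Atg10 at 0.68 times had the lowest ratios of all 38, and both are short. Atg9a, at 5762 bases also among the shorter genes, had the highest ratio of all, 2.33 times. Spearman's rho with merged exon length was 0.59 across the 38 genes and 0.45 across 12405 genes with a known length. Between untreated replicates 3 and 1 it was -0.39 across the 38 and -0.01 across all. These correlations are across genes of the same libraries, which are not independent replicates, and were looked at after the values were seen. Between the groups, the longer and the shorter genes had median differences of -0.08 and -0.10.

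**Figure D5:**
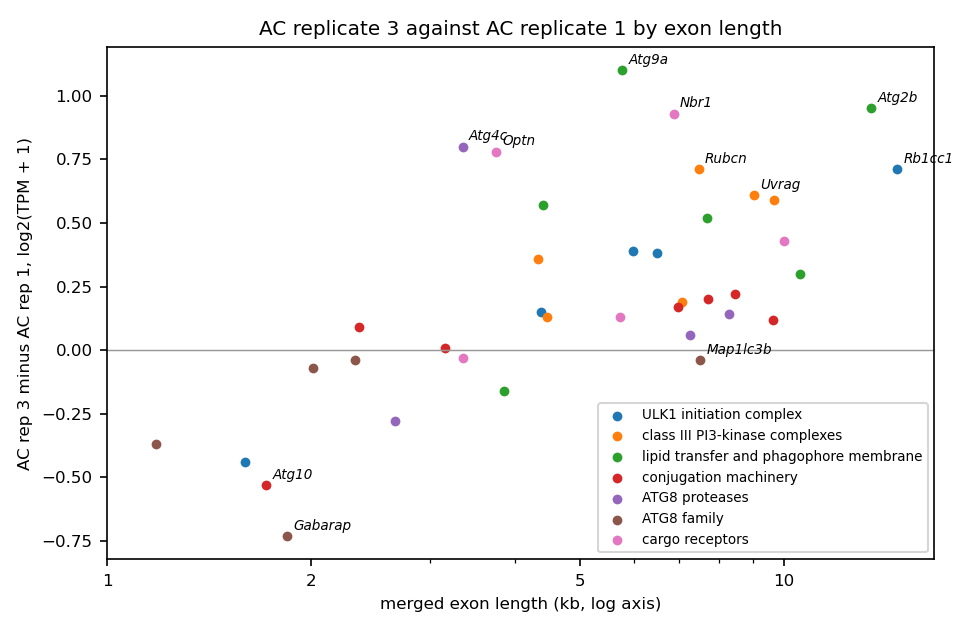
Log2 difference between AC replicate 3 and AC replicate 1 for the 38 genes against merged exon length on a log axis, coloured by role. Of the 19 longer genes 18 lie above 0, while the 19 shorter ones lie on both sides of it, from Gabarap to Atg9a (Spearman's rho 0.59). Of all genes tested 64.7% were higher in AC replicate 3.

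No other gene of the pathway passed the test either. In 5 further lists with 66 genes, 63 were tested and 0 passed in either direction, with 53 means (84.1%) lower in AC pretreated cells, beside 70.6% of all genes tested, and a median difference of -0.08. With median-of-ratios scaling 37 of the 63 were lower (58.7%), beside 52.6% of all genes. Of 11 other initiation and nucleation genes 10 were lower, with the smallest p for Nrbf2 at -0.22 ± 0.14, and 1 was higher, Wdr45 at 0.02 ± 0.19. Among 17 genes of autophagosome fusion and maturation 14 were lower and 3 higher, with Vps18, of a tethering complex, at -0.22 ± 0.17 and Tecpr1 at 0.13 ± 0.24. Of 14 tested genes of selective autophagy 12 were lower, with Rtn3 at -0.11 ± 0.13, while the mitophagy receptor gene Bnip3 was at 0.18 ± 0.22. Ccpg1 and Stbd1 of that list stayed below 1 TPM in every library. Of 14 tested genes of the nutrient-sensing kinases 10 were lower. The smallest p in each direction belonged to subunit genes of the AMP-activated kinase, Prkab1 at -0.19 ± 0.14 and Prkab2 at 0.17 ± 0.27, and Prkaa2 was below 1 TPM. Nrbf2, Prkab1 and Ncf1 were the 3 of the 63 (4.76%) whose groups did not overlap, all lower with AC, against 3.48% of all genes tested in that direction, and with median-of-ratios scaling there were 0 of the 63.

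The NADPH oxidase, which makes the reactive oxygen that LAP requires, had 7 of 7 genes with lower means and 0 past the test, at a median difference of -0.11. Most genes lean that way at this scaling (70.6%), and with median-of-ratios scaling the 7 were still lower but their median was -0.04. Cybb, for its catalytic subunit, had 385, 618 and 632 TPM in AC pretreated and 618, 528 and 583 TPM in untreated libraries, and the groups overlapped with AC replicate 1 lowest. Ncf1, a cytosolic subunit gene, had the smallest unadjusted p of the list at 263, 266 and 286 TPM with AC and 325, 307 and 298 TPM without, a difference of -0.19 ± 0.12. With median-of-ratios scaling its AC replicate 1 was at 303 and the untreated libraries at 299 to 302.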

How the data were processed

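The labels' protocols describe TRIzol extraction and paired-end Illumina sequencing of poly(A) RNA. STAR 2.7.10a, Subread, featureCounts 2.0.3 and mm10 are listed in the submitters' processing notes without role or order. No source used here states the annotation, strand setting, filters or treatment of multi-mapping reads.

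The table that the authors deposited holds a signal per gene and library and is named TPM, but its columns sum to 54732 to 92831. Multiplied by merged exon length (GENCODE mouse M21) and divided by 8.57, the deposited signal was whole within 0.02 reads in all 6 libraries for 23508 of 23870 genes above 0 with a length (98.5%), and for all 38 genes described. The values are thus counts per exon base, unscaled for depth, which was 19062891 to 32253259 recovered reads. Columns left unused, and rows without a gene name, numbered 0.

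Values were rescaled to 1000000 per library, since the test had been written for TPM. A gene entered the test if 3 or more libraries reached 1 TPM, which left 12603. Group means of log2(TPM + 1) were compared with limma 3.58.1 in R 4.3.3 (eBayes, trend on; 2-sided), and p-values adjusted by Benjamini-Hochberg over the 12603, with 0.05 as threshold. The procedure was tried on simulated data. Tables and plots used Python 3.11.15 with numpy 2.4.6, pandas 2.3.3, matplotlib 3.10.9 and scipy 1.17.1.

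The 38 genes, the further lists and the markers were chosen with earlier results of these data known. Values in every library were set to be given for the genes LAP needs, the ATG8 family, the cargo receptors, the 4 smallest p in each direction and genes whose groups did not overlap. The gene of each further list with the smallest p in each direction is named, and Cybb. Genes named in the account of exon length and the placental genes were chosen after their values were seen. Alternatives covered the pseudocount, the filter, the scaling, the variance model, a block for replicate number, each library left out, and subsets of replicates. Other scalings for the overlap of groups, and levels per principal transcript, were chosen after seeing the data.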

Additional observations from a re-analysis of the deposited data

How the results depend on the processing

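Across the alternatives, 0 of the 38 genes passed in any that allowed a test, with 6 libraries or with 1 left out. The count of all genes past the threshold was 0, except 29 with values as deposited, which are not scaled for depth, and 1 with eBayes without trend. The median of the 38 was -0.18 within replicates 1 and 2, 0.01 between the replicate 3 libraries and -0.14 to -0.01 on leaving out 1 library (0 to 0 genes passed then). With the replicate number as a block the median was -0.09 and 0 genes passed. The main test did not pair libraries by number. Deviations of same-numbered libraries correlated at -0.06, 0.01 and 0.167, and AC replicate 1 correlated best with untreated replicate 2. With 3 libraries per group these correlations cannot show whether the numbers pair libraries. The placental transcripts, however, were present in replicates 1 and 2 of both groups and at 0 in replicate 3 of both. Whether the numbers mark a batch was not tested beyond the block.

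Signs of small differences turned under some settings, and the cause was not tested. With median-of-ratios scaling they were 0.05 for Ulk1, 0.01 for Pik3c3, 0.04 for Pik3r4, 0.05 for Wipi1, 0.04 for Atg7, 0.01 for Atg16l1 and 0.04 for Atg4c. Without Gm23935 in the total, Ulk1 was at 0.02, Pik3r4 at 0.01, Wipi1 at 0.02, Atg7 at 0.01 and Atg4c at 0.01, and by voom at 0.02, 0.01, 0.02, 0.02 and 0.01 in that order. With values as deposited Rb1cc1 was at -0.03, Atg5 at -0.01, Gabarap at -0.04, Gabarapl2 at -0.03, Optn at -0.03 and Tax1bp1 at -0.04. With a pseudocount of 0.1 Rb1cc1 was at -0.00. Within replicates 1 and 2 it was at -0.08, Atg3 at 0.01, Atg10 at 0.10 and Atg4a at 0.13. Between the replicate 3 libraries, where no test is possible, 21 turned, among them Atg2a at 0.62, Atg9a at 0.61, Atg2b at 0.48, Wipi1 at 0.44, Ulk1 at 0.42, Rubcn at 0.39, Gabarap at -0.39 and Vmp1 at -0.28, and the 38 lay between -0.63 and 0.62.

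On leaving out 1 library, 22 of the 38 turned sign, 13 of them without AC replicate 1 and 12 without untreated replicate 1. The share of all genes tested that turned was not computed. The median of all genes tested went from -0.07 to 0.01 without AC replicate 1 and to -0.04 without untreated replicate 1. The ranges of the 22 were Ulk1 -0.17 to 0.12, Rb1cc1 -0.12 to 0.23, Pik3c3 -0.18 to 0.04, Pik3r4 -0.14 to 0.15, Uvrag -0.19 to 0.11, Rubcn -0.35 to 0.01, Atg2a -0.30 to 0.05 and Atg2b -0.31 to 0.17. For Atg9a it was -0.45 to 0.10, Wipi1 -0.17 to 0.12, Vmp1 -0.02 to 0.19, Atg5 -0.01 to 0.12, Atg7 -0.07 to 0.04, Atg10 -0.25 to 0.04, Atg16l1 -0.19 to 0.05 and Atg4a -0.23 to 0.06. For Atg4c it was -0.18 to 0.22, Gabarap -0.11 to 0.25, Gabarapl2 -0.03 to 0.12, Nbr1 -0.32 to 0.15, Optn -0.14 to 0.27 and Tax1bp1 -0.09 to 0.19.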
